A study of Drosophila melanogaster with 12 samples.

Results

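The genes described here are 10 components of the Wingless (Wnt) signalling pathway of *Drosophila melanogaster*: the ligand genes *Wnt4* and *Wnt5*, the receptor genes *fz*, *fz2* and *arr*, the cytoplasmic transducer genes *dsh*, *Axn* and *sgg*, and the nuclear factor genes *pan* and *lgs*. They were taken by symbol from a table of 14977 genes, and all 10 had a row in it. The table holds 12 libraries from embryos in 6 collection windows after egg laying. T1 covered 0 to 45 min and T2 the following window up to 90 min. T3 then ran from 1.5 until 6 h, T4 until 12 h, T5 until 18 h and T6 until 24 h. For each window there was 1 miCLIP library, in which RNA fragments are bound by an m6A (N6-methyladenosine) antibody, cross-linked to it and pulled down with it, and 1 mRNA-seq library from aliquots of the same RNA. T1 and T2 are described in the sample records as windows of the maternal transcriptome, and T3 to T6 follow the start of zygotic transcription. The samples were collections of whole embryos, with no treatment given in the records, and their strain is named as *Canton S* in the growth protocol and the study's methods and as *yw* in the strain entry of the records. No member was at 0 in any library, and the fewest reads on a member in a library were 11.

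In Wingless signalling a secreted Wnt protein is bound by a Frizzled receptor and the co-receptor Arrow. The bound receptors recruit Dishevelled and Axin, and the complex of Axin, Apc and the kinases Shaggy and Casein kinase I then no longer marks the β-catenin Armadillo for destruction. Armadillo enters the nucleus and, with the adaptors Legless and Pygopus, turns the DNA-bound factor Pangolin from a repressor into an activator of targets such as *nkd*. In the fly embryo the pathway is best known for patterning the segments of the epidermis, and many of its components are also loaded into the egg as mRNA.

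Values are FPKM, that is read numbers scaled for the length of the gene and for the library, and differences are given on the log2(FPKM + 1) scale, which understates differences of low genes. A miCLIP value depends on the amount of a transcript and on how much of it the antibody recovers, so it is set beside the mRNA-seq value of the same window. With 1 library per assay and window no value has a replicate, and a ratio within a window describes 2 libraries. In whole embryos, fewer cells that express a gene and less RNA per cell cannot be told apart.

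Reads on genes were between 4251686 and 14484576 in the miCLIP libraries and between 23127955 and 25486971 in the mRNA-seq libraries. The share of genes at 0 was highest in T1 among the miCLIP libraries, at 52.5%, and the T1 miCLIP library correlated with its own mRNA-seq library at a Spearman rho of 0.579 across 5383 genes. The T6 miCLIP library correlated less with the T6 mRNA-seq library (rho = 0.497) than with that of T5 (rho = 0.715). FPKM sums differed between libraries, from 456917 to 988201 in miCLIP and from 314435 to 1060882 in mRNA-seq, with the highest sum in T6 in both assays. Stage markers differed between the windows in mRNA-seq: the maternal axis mRNA *bcd* had 52.2 and 58.3 FPKM in T1 and T2 and at most 15.3 FPKM afterwards. The neuronal gene *elav* was highest in T4 at 49.7 FPKM, whereas the neuronal genes *nSyb* and *Syt1* were highest in T6, at 81.4 and 27.8 FPKM. The muscle gene *Mlp84B* was highest in T5 at 303.4 FPKM. Of the cuticle genes, *TwdlT* was highest in T5 at 150.2 FPKM and had 3.63 FPKM in T6, and *resilin* was highest in T3 at 0.834 FPKM. The larval fat body markers *Lsp1alpha* and *Fbp1* were below 0.1 FPKM in all mRNA-seq libraries.

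In mRNA-seq, *fz2* and *Wnt4* were low in the maternal windows and peaked in T4, *Wnt5* peaked in T4 from a maternal level, and *fz*, *dsh*, *Axn*, *arr* and *lgs* had their lowest levels in T5 or T6. In miCLIP, *Wnt4*, *Wnt5*, *fz2*, *sgg*, *pan* and *lgs* were higher in each of T3 to T6 than in T1 and T2, whereas *dsh* varied least of all members. These profiles are shown gene by gene in the plot of FPKM by timepoint.

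**Figure D1:**
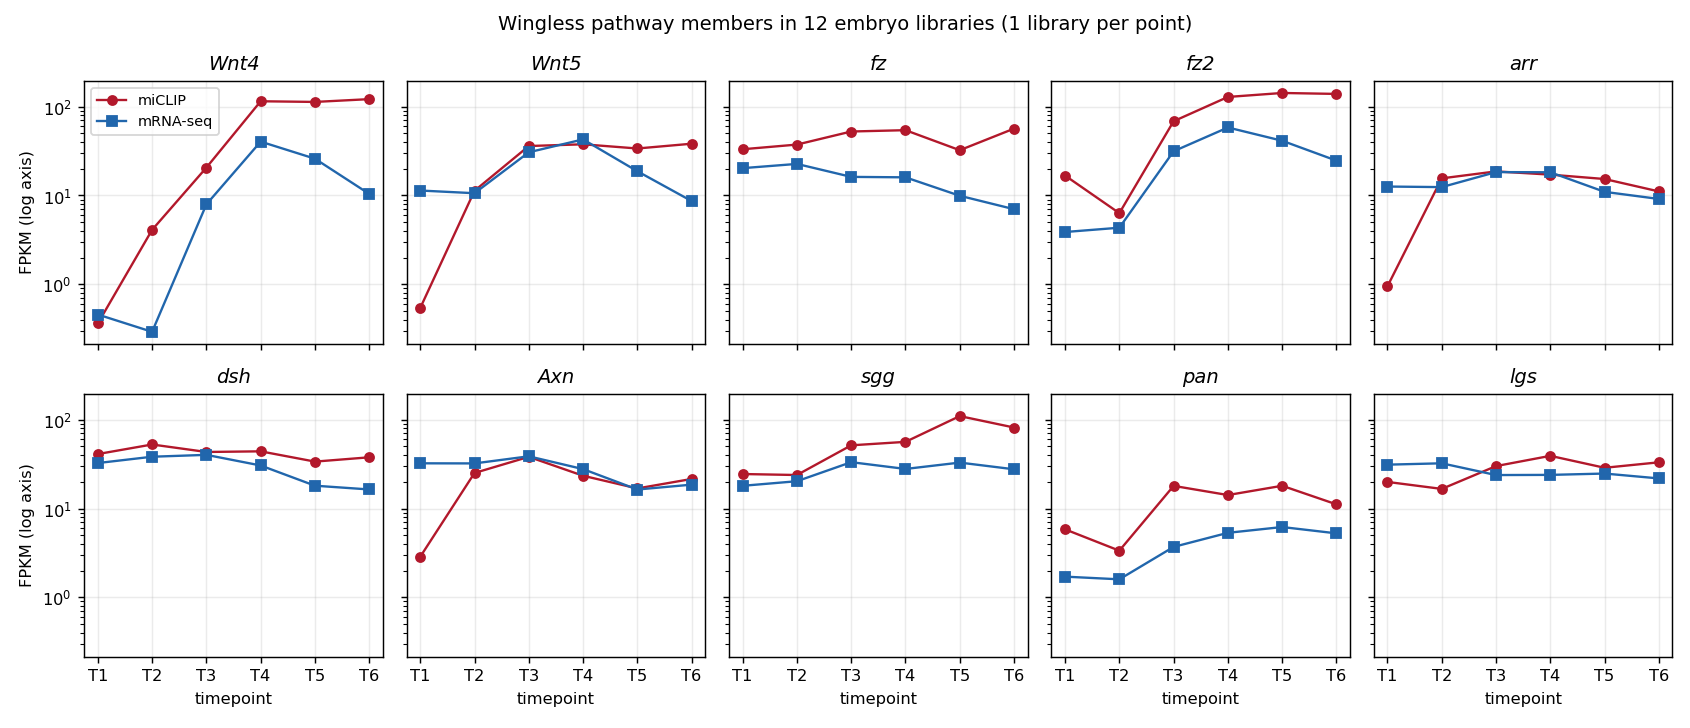
FPKM (log axis) of the 10 members by timepoint, T1 to T6, in miCLIP (red circles) and mRNA-seq (blue squares); each point is 1 library. miCLIP stays above mRNA-seq in all 6 timepoints for *fz*, *fz2*, *dsh*, *sgg* and *pan*, while *arr*, *Axn* and *Wnt5* are far below it in T1 and close to it in T2 to T4.

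The ligand gene *Wnt4*, whose product has roles in cell movement and in the targeting of axons in the fly, had 0.363, 4.11, 20.6, 114.9, 112.9 and 121.3 FPKM in the miCLIP libraries of T1 to T6. In mRNA-seq it had 0.458, 0.293, 7.95, 40.4, 25.9 and 10.4 FPKM. The mRNA was nearly absent from both maternal windows and reached its highest level in T4, and miCLIP stayed near its T4 level while the mRNA was lower in T5 and T6. Set against mRNA-seq, the log2 ratio of miCLIP was accordingly 1.27, 1.49, 2.08 and 3.42 in T3, T4, T5 and T6. In T2 the 2 libraries held 75 miCLIP reads and 36 mRNA-seq reads on *Wnt4*, a 14.0-fold ratio without a pseudocount (95% exact Clopper-Pearson interval 9.31 to 21.5, counting error only). In T1 they held 11 and 62 reads, and the interval of the ratio, 0.377 to 1.52, included 1.

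The ligand gene *Wnt5*, whose product guides axons through the Ryk-type receptor Derailed, had 0.542, 11.3, 36.0, 37.7, 33.8 and 38.2 FPKM in the miCLIP libraries of T1 to T6. Its mRNA-seq values were 11.4, 10.6, 30.6, 42.8, 18.7 and 8.66 FPKM. Unlike *Wnt4*, its mRNA was present in both maternal windows. From T3 onward its miCLIP level stayed within a narrow range while its mRNA varied, and the log2 ratio was 0.23, -0.18, 0.82 and 2.02 in T3 to T6. The T1 miCLIP library held only 19 reads on *Wnt5*, against 1782 reads in T1 mRNA-seq.

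The receptor gene *fz*, which also acts in planar cell polarity, had 33.1, 37.4, 52.5, 54.3, 32.3 and 56.6 FPKM in the miCLIP libraries of T1 to T6. The mRNA-seq libraries gave 20.3, 22.7, 16.2, 16.0, 9.93 and 7.01 FPKM. The mRNA was highest in the maternal windows and lowest in T6, whereas miCLIP had its highest value in T6. The log2 ratio was 0.68, 0.70, 1.64, 1.70, 1.61 and 2.84 in T1 to T6, above 0 in all 6 windows and largest in the last. Of the 10 members, *fz* and *lgs* were the ones with a negative correlation between the 2 assays over the 6 timepoints (Pearson r = -0.34 for *fz* and -0.93 for *lgs*, given as descriptions).

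The receptor gene *fz2*, which encodes a Frizzled with high affinity for Wingless, had 16.8, 6.33, 68.5, 128.4, 142.3 and 138.9 FPKM in the miCLIP libraries of T1 to T6. In mRNA-seq it had 3.88, 4.34, 31.5, 58.2, 41.3 and 24.7 FPKM. All later libraries of each assay were above both maternal ones, and in miCLIP the level stayed high in T6 although the mRNA was less than its T4 level. Its log2 ratio was 1.86, 0.46, 1.10, 1.13, 1.76 and 2.45 in T1 to T6, past 2-fold in 5 of 6 windows. *Wnt4* was past 2-fold in 5 windows as well, of which T2, with 0.293 FPKM in mRNA-seq, was below the minimum of 1 FPKM used for the counts by window. The Pearson correlation between assays was highest for *fz2* and *Wnt4* (r = 0.92 for each over 6 timepoints, which share the RNA), whereas Spearman's rho was highest for *pan* (0.829, against 0.771 for *Wnt4* and 0.657 for *fz2*).

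The co-receptor gene *arr*, the fly LRP5/6 homologue, had 0.952, 15.6, 18.7, 17.2, 15.3 and 11.1 FPKM in the miCLIP libraries of T1 to T6. Its mRNA-seq values were 12.6, 12.4, 18.3, 18.3, 11.0 and 9.14 FPKM. Apart from T1, its 2 assays lay close together, with log2 ratios between -0.08 and 0.45. In T1 it had 52 miCLIP reads against 3081 mRNA-seq reads, a ratio of 0.0755 without a pseudocount (interval 0.0562 to 0.0992, counting error only).

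*dsh*, which encodes the scaffold that relays the signal from Frizzled, had 41.0, 52.5, 43.3, 44.0, 33.7 and 37.7 FPKM in the miCLIP libraries of T1 to T6. The mRNA-seq libraries gave 32.5, 38.3, 40.2, 30.5, 18.1 and 16.4 FPKM. Its miCLIP level was the steadiest among the members, with the highest value 1.56 times the lowest, while the mRNA was lower in T5 and T6 than in the other windows. The log2 ratio passed 2-fold only in T6, at 1.15.

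*Axn*, which encodes the scaffold of the destruction complex, had 2.86, 25.1, 38.2, 23.4, 16.8 and 21.5 FPKM in the miCLIP libraries of T1 to T6. In mRNA-seq it had 32.3, 32.2, 38.7, 27.8, 16.4 and 18.6 FPKM. From T2 onward the 2 assays were within 2-fold of each other, with log2 ratios between -0.34 and 0.20. In T1 the log2 ratio was -3.11, from 130 miCLIP reads and 6546 mRNA-seq reads. In a later annotation (BDGP6) exons of *Axn* overlap those of *ZIPIC* and of an antisense RNA on the other strand, and since the strand setting of the counting is not given in the sources used here, reads of these genes cannot be told apart.

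*sgg*, the fly GSK3 gene, whose kinase phosphorylates Armadillo, had 24.4, 23.8, 51.4, 56.2, 109.6 and 81.5 FPKM in the miCLIP libraries of T1 to T6. Its mRNA-seq values were 18.0, 20.3, 33.2, 27.9, 32.9 and 27.6 FPKM. Its mRNA differed by 1.84-fold between the highest and the lowest library, and its miCLIP level by 4.60-fold. The log2 ratio was 0.42 and 0.22 in the maternal windows and 0.61, 0.99, 1.71 and 1.53 in T3 to T6. Exons of *sgg* share their strand and place with an lncRNA in the BDGP6 annotation, so its reads may include that RNA.

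*pan*, which encodes the TCF factor that binds the target genes, had 5.83, 3.36, 18.0, 14.2, 18.0 and 11.1 FPKM in the miCLIP libraries of T1 to T6. The mRNA-seq libraries gave 1.71, 1.60, 3.70, 5.33, 6.19 and 5.26 FPKM, the lowest mean level among the members. Both assays were higher in all later windows than in both maternal ones. The log2 ratio was 1.33, 0.75, 2.01, 1.26, 1.40 and 0.96, above 0 in all 6 windows and past 2-fold in 4. *pan* overlaps annotated transposon insertions in BDGP6, whose copies elsewhere could share its reads.

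*lgs*, which encodes the BCL9-type adaptor between Armadillo and Pygopus, had 19.9, 16.6, 30.0, 39.1, 28.7 and 33.1 FPKM in the miCLIP libraries of T1 to T6. In mRNA-seq it had 31.2, 32.3, 23.8, 23.9, 24.7 and 21.8 FPKM. miCLIP was thus below mRNA-seq in both maternal windows, with log2 ratios of -0.62 and -0.92, and above it in T3 to T6, with log2 ratios between 0.21 and 0.69. No window passed 2-fold.

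Counted within each window, members past 2-fold were mostly higher in miCLIP, and from T3 on their share was above that of all genes. Over genes with at least 1 FPKM in both libraries, 2 of 7 members tested were over 2-fold higher in T1, where 24.8% of all genes tested were. T2 had 0 of 9 members beside 11.8% of genes, and T3 had 4 of 10 beside 9.96%. T4 again had 4 of 10 members, beside 8.14% of genes, while T5 had 5 of 10 beside 14.3% and T6 had 6 of 10 beside 20.6%. The members past 2-fold were *fz2* and *pan* in T1, *fz*, *fz2*, *pan* and *Wnt4* in T3 and T4, those and *sgg* in T5, and *fz*, *fz2*, *dsh*, *sgg*, *Wnt4* and *Wnt5* in T6. T6 was also the window with the lowest Spearman rho between its 2 libraries, 0.497. The part that this has in the T6 ratios was not tested. The single member over 2-fold lower among those tested was *Axn* in T1, where 16.3% of all genes were. No member was over 2-fold lower in T2 (10.8% of all genes), T3 (6.63%), T4 (7.26%), T5 (16.5%) or T6 (27.3%). The median log2 ratio of the members was 0.42, 0.31, 0.47, 0.84, 1.13 and 1.34 in T1 to T6, beside 0.28, 0.01, -0.08, -0.07, -0.07 and -0.16 over all genes tested. *arr* and *Wnt5* in T1 and *Wnt4* in T1 and T2 were below 1 FPKM in a library and were not among those tested.

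The T1 values of *arr*, *Axn* and *Wnt5* stood apart from those of the same genes in later windows. In T1 miCLIP 19.9% of genes with at least 10 FPKM in T1 mRNA-seq (1056 of 5303) were over 4-fold lower, and these 3 members were among them. The other members at that level, *fz*, *dsh*, *sgg* and *lgs*, were not. Of those 1056 genes, 650 (61.6%) were within 2-fold in both T2 and T3, again with the 3 members among them. The part that the high share of genes at 0 in the T1 miCLIP library has in these values was not tested.

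**Figure D2:**
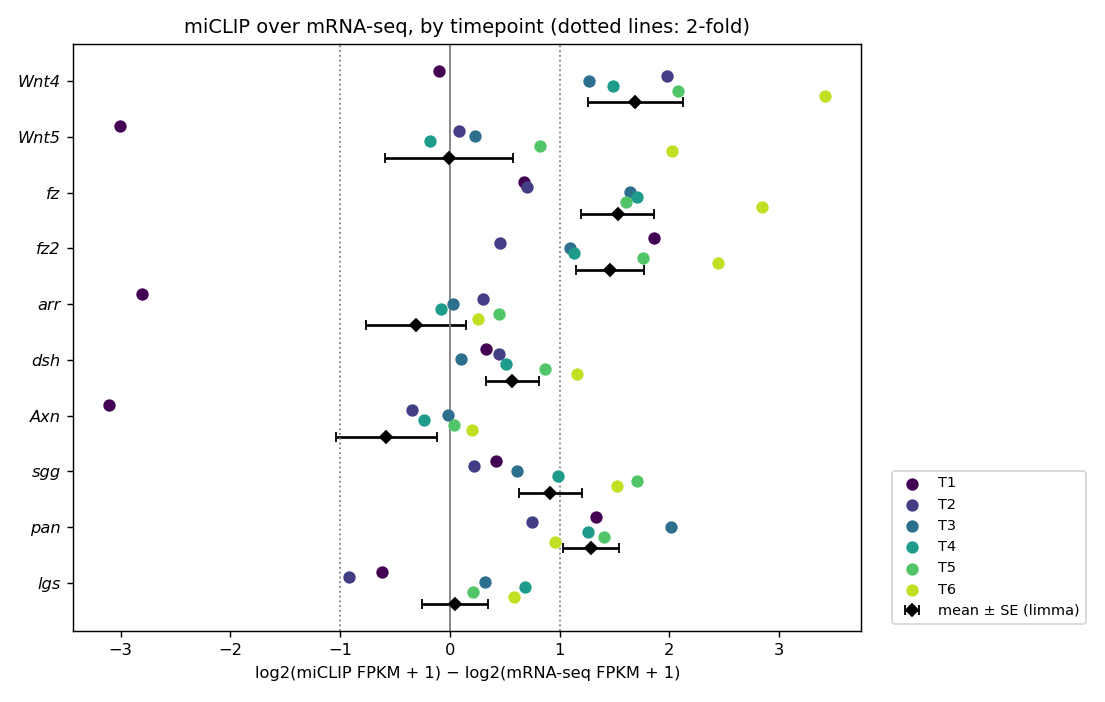
Log2 ratio of miCLIP over mRNA-seq for each member, with 1 point for each of the 6 timepoints (colour) and, below the points, the mean over timepoints with its standard error from limma (black diamond). All 6 points are above 0 for *fz*, *fz2*, *dsh*, *sgg* and *pan*, and T1 lies at -2.80 for *arr*, -3.11 for *Axn* and -3.00 for *Wnt5*.

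Over the 6 timepoints together, *pan* and *fz2* were the members that passed the test across genes, both with higher miCLIP. The test was limma on log2(FPKM + 1) with the timepoint as a block, 2-sided, with Benjamini-Hochberg adjustment over 10655 genes with a mean of at least 1 FPKM. It sets the difference between the assays against its spread over timepoints, which are not replicates of 1 condition. *pan* was higher by 1.29 ± 0.25 (SE) on the log2 scale in miCLIP (adjusted p = 0.0383, higher in 6 of 6 timepoints) and *fz2* by 1.46 ± 0.31 (adjusted p = 0.0478, higher in 6 of 6). These are 2 of 10 members, beside 3.21% of all genes called higher. No member was called lower, beside 0.357% of all genes. Neither call was firm: without single timepoints the limma adjusted p was between 0.0511 and 0.135 for *pan* and between 0.0584 and 0.157 for *fz2*. No member passed once all libraries were brought to 1 common sum. With each library centred on its median, *pan* and *fz2* did not pass (limma adjusted p = 0.0857 and 0.0909), whereas *Wnt4* and *fz* did (0.0276 and 0.0418).

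The other members did not pass this test. *fz* differed by 1.53 ± 0.33 (limma adjusted p = 0.0525), *Wnt4* by 1.69 ± 0.43 (adjusted p = 0.0828), *sgg* by 0.91 ± 0.29 (adjusted p = 0.129) and *dsh* by 0.57 ± 0.24 (adjusted p = 0.232). Without T1 *fz* and *Wnt4* passed in place of *pan* and *fz2*, at 1.70 (adjusted p = 0.0482) and 2.05 (adjusted p = 0.0319). Without T6 *fz* and *Wnt4* differed by 1.26 and 1.34 and did not pass. For *lgs* (0.04 ± 0.30), *Wnt5* (-0.01 ± 0.58), *arr* (-0.31 ± 0.45) and *Axn* (-0.58 ± 0.46) the mean difference was within about 1 standard error of 0 or little beyond it, and without T1 it was 0.59 for *Wnt5*, 0.19 for *arr* and -0.07 for *Axn*. The mean was above 0 for 7 of 10 members, beside 41.1% of all genes tested, and the median was 0.74 for the members and -0.15 for all genes.

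Between the later windows (T3 to T6) and the maternal windows (T1 and T2), *fz2* was the only member whose mRNA difference passed the test. The test sets the difference against the spread between windows of the same group, which are different stages and not replicates of 1 condition. That holds for miCLIP and for the ratio below as well. The difference of *fz2* in mRNA-seq was 2.90 ± 0.38 on the log2 scale (limma adjusted p = 0.04995), with all 4 later libraries above both maternal ones. *fz2* was 1 of 10 members called, beside 1.05% of all genes called higher and 0.479% called lower. The call lay at the threshold: leaving out 1 library at a time moved the adjusted p between 0.0284 and 0.460, it passed only without T3 among these, and it did not pass with libraries scaled to the same sum (difference 2.13). *Wnt4* differed more in size, by 3.74 ± 0.71, with more spread (limma adjusted p = 0.0753), and *pan* by 1.19 ± 0.22 (limma adjusted p = 0.0739). Without T3 both passed (limma adjusted p = 0.0329 for *Wnt4* and 0.0207 for *pan*). In that setting 1659 of all genes tested were called, against 163 with all libraries.

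The remaining mRNA differences did not pass the test. They were 0.92 ± 0.65 for *Wnt5*, 0.64 ± 0.17 for *sgg* and 0.11 ± 0.35 for *arr*, and -0.41 ± 0.15 for *lgs*, -0.41 ± 0.39 for *Axn*, -0.50 ± 0.43 for *dsh* and -0.83 ± 0.39 for *fz* (limma adjusted p between 0.131 and 0.851). The median over all genes was 0.51, above the values of all these members but *Wnt5* and *sgg*. Beside these values stand the FPKM sums of the libraries, which were 3.37 times as high in T6 as in T1 in mRNA-seq. Scaled to the same sum, *arr* and *sgg* had later-minus-maternal differences of -0.80 and -0.29.

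In miCLIP, no member passed the same test, beside 0.629% of all genes called higher and 0.141% called lower, and 5 of 10 members had an unadjusted p under 0.05 in limma, as did 21.3% of all genes (2273 of 10655). The differences of these 5 were 4.86 ± 0.98 for *Wnt4* (adjusted p = 0.0758), 3.34 ± 0.56 for *fz2* (adjusted p = 0.0608), 3.10 ± 0.84 for *Wnt5* (adjusted p = 0.129), 1.56 ± 0.41 for *pan* (adjusted p = 0.122) and 1.53 ± 0.45 for *sgg* (adjusted p = 0.145). All 4 later miCLIP libraries were above both maternal ones for each of these 5 genes. Without T3, *Wnt4* and *fz2* passed (limma adjusted p = 0.0329 and 0.0396), when 603 of all genes tested were called, against 82 with all libraries. The median was 1.52 for the members and 0.85 for all genes.

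**Figure D3:**
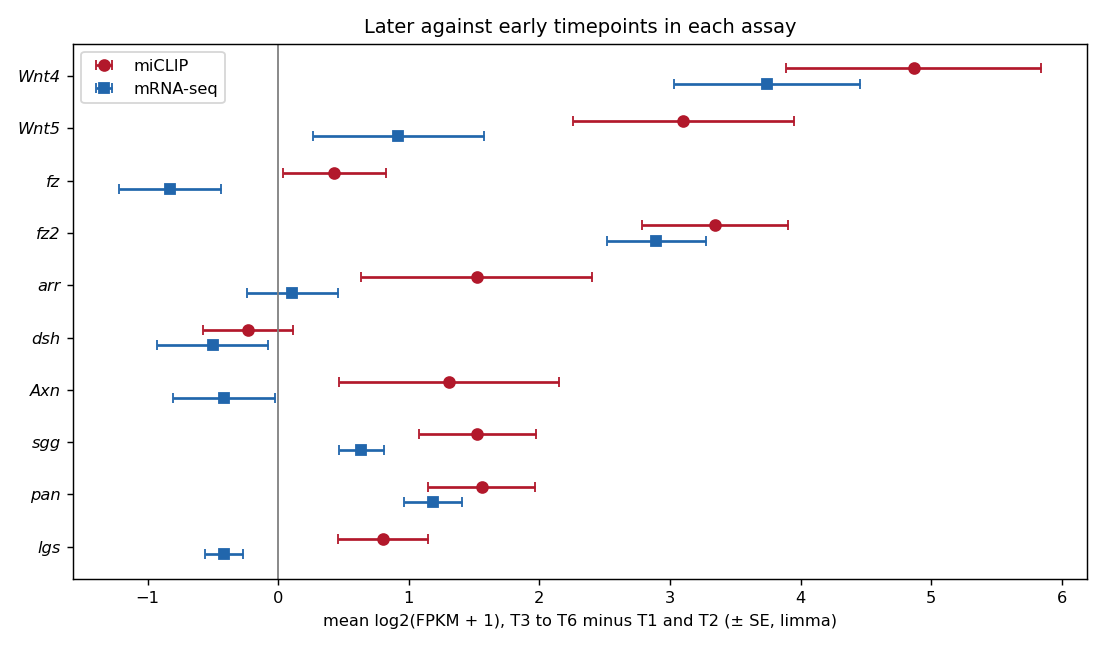
Difference of the mean log2(FPKM + 1) between T3 to T6 and T1 and T2 for each member, in miCLIP (red circles) and mRNA-seq (blue squares), with the standard error from limma. *Wnt4* and *fz2* have the largest differences in both assays, and *fz*, *dsh*, *Axn* and *lgs* lie below 0 in mRNA-seq.

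Whether the ratio of miCLIP over mRNA-seq itself differed between the later and the maternal windows was tested on the 6 ratios of each gene. limma called 0 of 10655 genes (0% higher, 0% lower), with 1165 genes (10.9%) at an unadjusted p under 0.05. The ratio was higher in the later windows for 10 of 10 members, beside 52.6% of all genes. Once each library was centred on its median, it was higher for 6 of 10, with *fz2*, *dsh*, *sgg* and *pan* below 0. The share of all genes after centring is not given here, so the 6 of 10 has no background beside it. In the uncentred values 1 member had an unadjusted p under 0.05: *lgs*, with a difference of 1.22 ± 0.46 (adjusted p = 0.426). For *Wnt5*, *Axn* and *arr* the differences of 2.18 ± 1.02, 1.72 ± 0.79 and 1.41 ± 0.86 include the low T1 miCLIP values, and without T1 they were 0.64, 0.34 and -0.14.

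The steps at which the mRNA of the members differed by more than 2-fold were not the same. No member was past 2-fold between T2 and T1, where 0.352% of all genes were over 2-fold higher and 5.74% lower. Between T3 and T2, *fz2*, *Wnt4* and *Wnt5* were higher by 2.60, 2.79 and 1.45 on the log2 scale, 3 of 10 members beside 20.8% of all genes. Between T4 and T3 the ligand gene *Wnt4* was higher by a further 2.21, where 24.9% of all genes were over 2-fold higher. No member was over 2-fold lower in T3 against T2 or in T4 against T3, where 12.4% and 11.2% of all genes were. *Wnt5* differed by -1.15 in T5 against T4, where 9.35% of all genes were over 2-fold lower. In T6 against T5, *Wnt4* and *Wnt5* differed by -1.24 and -1.03 (10.5% of all genes over 2-fold lower). No member was over 2-fold higher in T5 against T4 or in T6 against T5, where 34.1% and 16.2% of all genes were. *fz*, *arr*, *dsh*, *Axn*, *sgg*, *pan* and *lgs* passed 2-fold at no step.

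By mean mRNA-seq level over the 6 timepoints, per gene length, the order was *dsh* (29.3 ± 10.03 FPKM, SD over timepoints), *Axn* (27.6 ± 8.64), *fz2* (27.3 ± 21.2), *sgg* (26.7 ± 6.32), *lgs* (26.3 ± 4.33), *Wnt5* (20.5 ± 13.6), *fz* (15.4 ± 5.97), *Wnt4* (14.2 ± 15.9), *arr* (13.6 ± 3.82) and *pan* (3.97 ± 1.96). Only the gap between *arr* and *pan*, 9.66 FPKM, exceeded the larger SD of its pair. In miCLIP the order began with *fz2* (83.5 FPKM), *Wnt4* (62.4) and *sgg* (57.8) and ended with *Axn* (21.3), *arr* (13.1) and *pan* (11.8).

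Genes whose log2 values ran most like those of a member over the 12 libraries were searched among 5952 genes with a mean of at least 1 FPKM and a symbol other than a CG number. The libraries share assay and timepoint, and the Pearson correlations are descriptions. The closest profile was that of *scrt* for *Wnt4* (r = 0.991, then *olf413*), *ph-d* for *Wnt5* (0.978, then *Cortactin*), *grh*, an epidermal transcription factor gene, for *fz2* (0.990, then *peb*) and *skd* for *fz* (0.945, then a U1 snRNA gene). It was *mip130* for *arr* (0.988, then *abs*), *Mad* for *dsh* (0.961, then *mbt*), *janA* for *Axn* (0.977, then *dgt1*) and *Or19a* for *sgg* (0.970, then *noe*). For *pan* it was the homeobox gene *hth* (0.965, then *dlg1*), and *lgs* had the weakest closest profile, that of *MEP-1* (0.818, then a U5 snRNA gene).

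Other genes of the pathway were read from a list of 34 symbols, of which 32 had a row and 31 passed the filter of a mean of 1 FPKM. Over the 6 timepoints, 5 of 31 were higher in miCLIP than in mRNA-seq by the same limma test and 0 were lower, beside the 3.21% and 0.357% of all genes given above. The mean difference was above 0 for 24 of 31, with a median of 0.40, beside 41.1% and -0.15 for all genes. The feedback inhibitor genes led the list: *nkd* was higher by 2.04 ± 0.30 (limma adjusted p = 0.0111) and *Notum*, which encodes a Wnt deacylase, by 1.99 ± 0.34 (adjusted p = 0.0239). The glypican gene *dally* was higher by 1.74 ± 0.27 (adjusted p = 0.0139), the Wnt5 receptor gene *drl* by 1.68 ± 0.34 (adjusted p = 0.0393) and the casein kinase gene *gish* by 1.13 ± 0.23 (adjusted p = 0.0440). Leaving out 1 timepoint at a time, the number called was between 0 (without T3 and without T5) and 4 (without T1), and without the timepoint block it was 0.

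The pathway target *nkd*, the listed gene with the largest difference, is given as an example. It had 15.6, 20.5, 141.8, 140.2, 83.4 and 123.6 FPKM in the miCLIP libraries of T1 to T6. Its mRNA-seq values were 4.73, 5.10, 36.2, 41.5, 21.9 and 11.3 FPKM. miCLIP was over 2-fold higher than mRNA-seq in every window, including T6, where the mRNA was lower than in T3 to T5. The ligand gene *wg* had 0.264, 2.87, 75.4, 41.6, 32.8 and 39.1 FPKM in miCLIP. In mRNA-seq *wg* had 2.05, 2.22, 24.5, 21.0, 10.02 and 4.27 FPKM, and its mean difference of 1.01 ± 0.51 did not pass (limma adjusted p = 0.292).

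By window, the listed genes past 2-fold higher in miCLIP were 5 of 19 tested in T1 and 3 of 22 in T2, near the 24.8% and 11.8% of all genes. They were 8 of 27 in T3 and 8 of 31 in T4, beside 9.96% and 8.14% of all genes, then 13 of 30 in T5 and 17 of 31 in T6, beside 14.3% and 20.6%. In T2, T4 and T6 a single listed gene was over 2-fold lower, *hyx*, *Ror* and *Apc2*, beside 10.8%, 7.26% and 27.3% of all genes. Among the central transducers, *arm*, the β-catenin gene, differed by -0.18 ± 0.25 and *Apc* by 0.19 ± 0.25, neither passing the test (adjusted p = 0.681 and 0.638). For the comparison of later with maternal windows limma called 0 of 31 listed genes in miCLIP, in mRNA-seq or in the ratio. Few of all genes were called there: 0.629% higher and 0.141% lower in miCLIP, 1.05% and 0.479% in mRNA-seq, and 0% in the ratio.

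**Figure D4:**
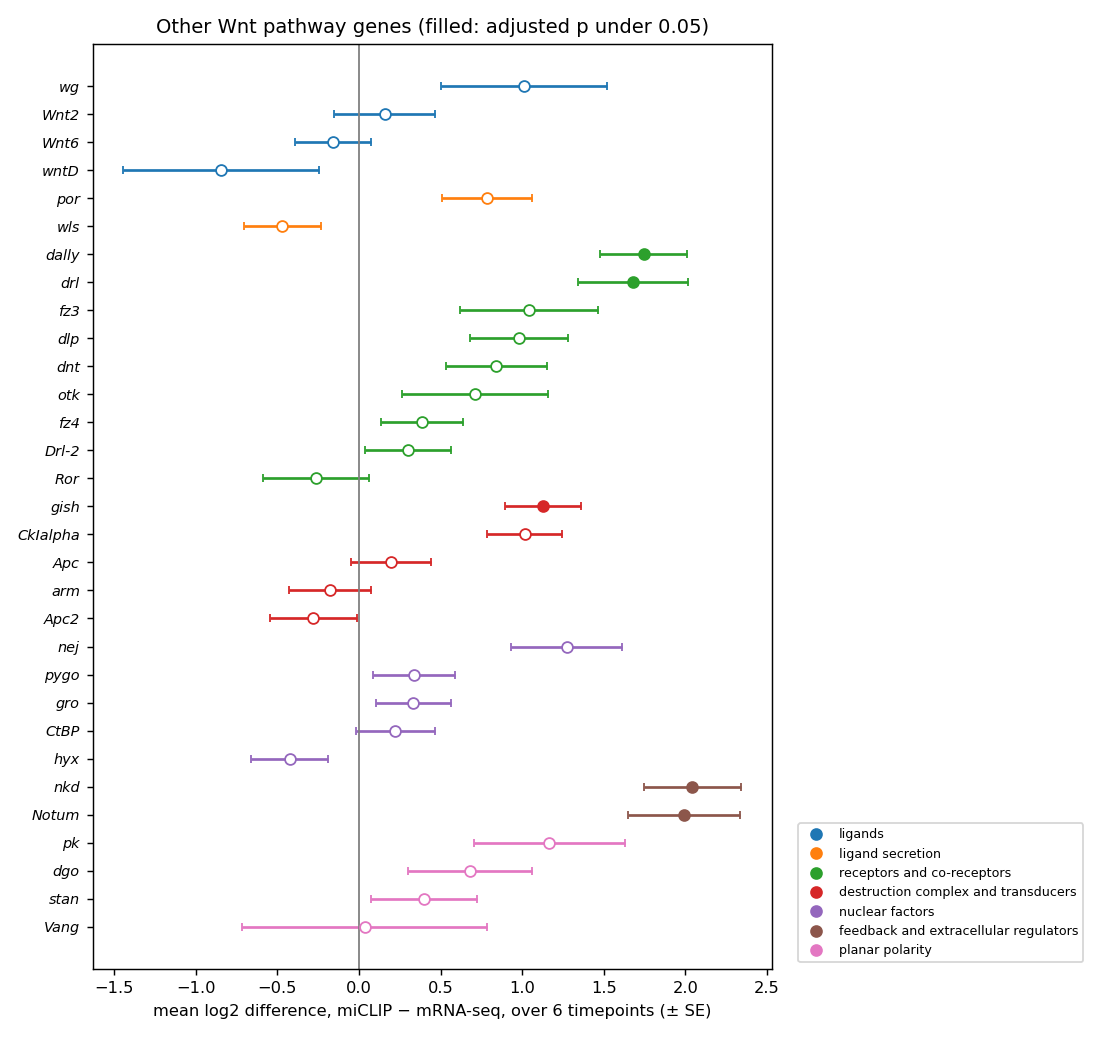
Mean log2 difference of miCLIP minus mRNA-seq over 6 timepoints, with its standard error, for the 31 other pathway genes tested, coloured by role; filled points passed the adjusted p of 0.05. The 5 filled genes, *dally*, *drl*, *gish*, *nkd* and *Notum*, lie between 1.13 and 2.04.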

How the data were processed

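The values are FPKM per gene in 12 libraries, 1 per assay and timepoint, which the authors deposited as a single table. Per the study's methods, the authors trimmed reads with Flexbar, demultiplexed them and removed PCR duplicates with pyCRAC, mapped them with Subread-align, counted them with featureCounts and scaled them with DEseq. The strand setting and gene lengths are not given in the sources used here. Reads per gene were recovered from the steps of single reads for 13982 genes, the other 995 having none, and were used for depth and for exact Clopper-Pearson intervals at the 95% level, which cover counting error only. The step recovery and the fits of the assay difference and the mRNA difference were tested on simulated data. In the simulation for the mRNA difference, unchanged genes had the same mean in all windows. Real windows are different stages, so the error rate of that test in these data was not shown.

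limma 3.58.1 in R 4.3.3 was fitted to log2(FPKM + 1) over all 10655 genes whose mean FPKM reached 1, with Benjamini-Hochberg adjustment and a threshold of 0.05. It compared miCLIP with mRNA-seq with the timepoint as a block, and T3 to T6 with T1 and T2 in each assay and in their ratio. The assays at a timepoint were paired because they used the same RNA, as the study's methods state. Ratios within a timepoint and steps between timepoints were called past 2-fold, with no test. Named genes are the 10 members, genes of a pathway list written from general knowledge, and the 2 closest profiles of each member. The members, lists and tests were chosen with earlier results of these data known. Alternatives were a pseudocount of 0.1, other filters, libraries scaled to the same sum or centred on their medians, a 1.5-fold limit, no timepoint block and each timepoint left out. Ratios without a pseudocount and the count of genes low in T1 miCLIP were added after seeing the data. Annotation overlaps came from BDGP6, a later assembly than the authors' one, so no coordinates are given. *slmb* and *fmi* had no row under those symbols, and neither had the muscle marker *Mhc*. *fmi* is a synonym of *stan*, which is also on the list and was tested. No sequences were used.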

Additional observations from a re-analysis of the deposited data

Results flagged for a closer look

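For each of the 10 members, the 6 log2 ratios of miCLIP over mRNA-seq were examined for a timepoint far from the others. In 2 of the 10, T1 lay apart: for *arr* at -2.80, with a gap to the next value of 0.837 of the whole range, and for *Axn* at -3.11, with a gap of 0.835 of the range. The rule is set so that chance alone marks about 1 in 20 groups of independent values from 1 condition. Here the 6 values are different windows and the members share their libraries, so that rate cannot be applied. Both values rest on the same T1 miCLIP library.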

How the results depend on the processing

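Precision is limited by 1 library per assay and timepoint, and for *Wnt4*, *Wnt5* and *arr* in T1 miCLIP by the few reads on these genes. The causes of the shifts below were not tested.

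For miCLIP against mRNA-seq, 2 members were called. There was 1 with a pseudocount of 0.1 and 1 over all genes above 0, and 0 with libraries scaled to the same sum. The number of all genes called moved less in these settings. It was somewhat below the 380 of the main fit with the pseudocount and the same sum, and slightly above it over all genes above 0. When median-centred, *Wnt4* and *fz* were called in place of *pan* and *fz2*. Without the timepoint block (the pairing of the assays), 0 members and 252 genes were called, against 380 genes with it. Leaving out 1 timepoint gave 0 to 2 members and 142 to 415 genes. The sign turned for *lgs* (-0.18, same sum; -0.085 to 0.24 without single timepoints), *Wnt5* (0.20, median-centred; -0.41 to 0.59) and *arr* (-0.46 to 0.19).

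For later against maternal mRNA-seq (1 member, 163 genes), a pseudocount of 0.1 gave 2 members and 435 genes, all genes above 0 gave 0 members, the same sum 0 members and 37 genes, and median-centring 0 members and 0 genes. Leaving out 1 library gave 0 to 3 members and 0 to 1659 genes, the highest numbers without T3. *arr* turned to -0.80 (same sum), -0.30 (median-centred) and -0.026 to 0.28 (single libraries left out), and *sgg* to -0.29 (same sum).

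For miCLIP (0 members, 82 genes), a pseudocount of 0.1 gave 1 member and 521 genes, a mean FPKM of at least 10 gave 168 genes and the same sum 237. Leaving out 1 library gave 0 to 2 members and 0 to 603 genes. *fz* turned to -0.13 (same sum) and -0.90, *Axn* to -0.027 and *lgs* to -0.53 (median-centred). With single libraries left out, *arr* was between -0.025 and 3.06 and *Axn* between -0.070 and 2.69. Where T1 or T2 was left out, the lone maternal library was assumed to vary like the others.

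For the ratio (0 genes), a pseudocount of 0.1 gave 19 genes and the same sum 11. Median-centring turned *fz2* (-0.48), *dsh* (-0.65), *sgg* (-0.037) and *pan* (-0.56), and leaving out single timepoints gave -0.14 to 2.96 for *arr* and -0.25 to 1.15 for *fz2*.

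Within timepoints, 1 member value was over 2-fold lower in miCLIP, and 3 were with the same sum, past 1.5-fold or with no minimum level. For mRNA-seq steps, 3 member values were lower and 4 higher, against 10 lower with the same sum, 8 lower when median-centred, and 9 lower and 7 higher past 1.5-fold. These settings, within timepoints and for steps, apply to all genes, whose shares under them are not given here. The shifts in the counts therefore cannot be read as particular to the members.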
